A study of Homo sapiens with 6 samples.

Results

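The RNA recovered with TIRR was compared between irradiated and untreated cells, over the 9230 genes that passed a default filter on low counts, of 28231 genes listed in at least 1 of the 4 iCLIP libraries. All 4 libraries came from U2OS, a human osteosarcoma cell line, carrying FLAG-tagged TIRR (genotype TIRR_FLAG in the labels) by stable transfection, so the untreated controls hold the tagged protein too. 2 libraries are of cells that received no treatment and 2 are of cells that had 5 Gy of X-rays and 4 h of recovery. RNA-seq of wild-type U2OS cells, 1 library without and 1 with the same dose and recovery, is set beside them. The RNA-seq cells therefore differ from the iCLIP cells in genotype as well as in assay.

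iCLIP fixes RNA to the protein it touches with ultraviolet light, recovers the protein with its RNA by an antibody, here against FLAG, and counts the complementary DNA molecules (cDNAs) copied from the fixed RNA. TIRR, made from NUDT16L1, binds the DNA repair protein 53BP1 and keeps it from chromatin until DNA breaks form. A gene's iCLIP count moves with the amount of its RNA in the cell as well as with how much of it TIRR touches, and fewer molecules of an RNA and less binding per molecule cannot be told apart in these libraries. Empty-vector cells were not analysed here, so no level is corrected for RNA that comes down without TIRR.

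The libraries held 400723 to 799709 counts on genes, the fewest in irradiated library 1, and 30.6% to 31.3% of all counts lay outside genes. TMM scaling factors ran from 0.970 to 1.03. Of 20 osteoblast and mesenchymal marker genes, 13 were listed in at least 1 library, summing to 1721 and 1677 counts per 1000000 gene counts without and to 1365 and 1349 with irradiation. Most of them did not share this lower sum. Among the 9 that passed the filter, the log2 fold change was positive for 6 and negative for 3 (median 0.26), and RUNX2, with the most counts, was lower. COL1A1, COL1A2, SPARC, SPP1, IBSP, BGLAP and TWIST1 were listed in none. Blood cell markers summed to 9.98 to 21.7 on the same scale, with CD3E, CD14, HBA1, HBB and LYZ among those listed in none. Nothing in the labels ties the replicates to separate cultures, and the p-values below therefore cover the spread of these libraries alone, possibly a technical one.

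At an adjusted p below 0.05 (edgeR's quasi-likelihood test, Benjamini-Hochberg), 323 genes (3.5% of those tested) were called, 224 higher (2.43%) and 99 lower (1.07%) after irradiation. The median log2 fold change was 0.98 among the rises and -0.88 among the falls, and 0.00 over all tested genes. Each fit was repeated with 1 library left out in turn, and 114 genes (1.24%) were called in all 4 of these fits, 97 of them rises and 17 falls. DESeq2 gave an adjusted p for 106 of these 114 and called 102. The short lists of p53 targets and of G2 phase and mitosis genes, with 21 and 29 tested members, held 29 of the 323 calls, and 242 belonged to none of the 51 pathway lists used.

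**Figure D1:**
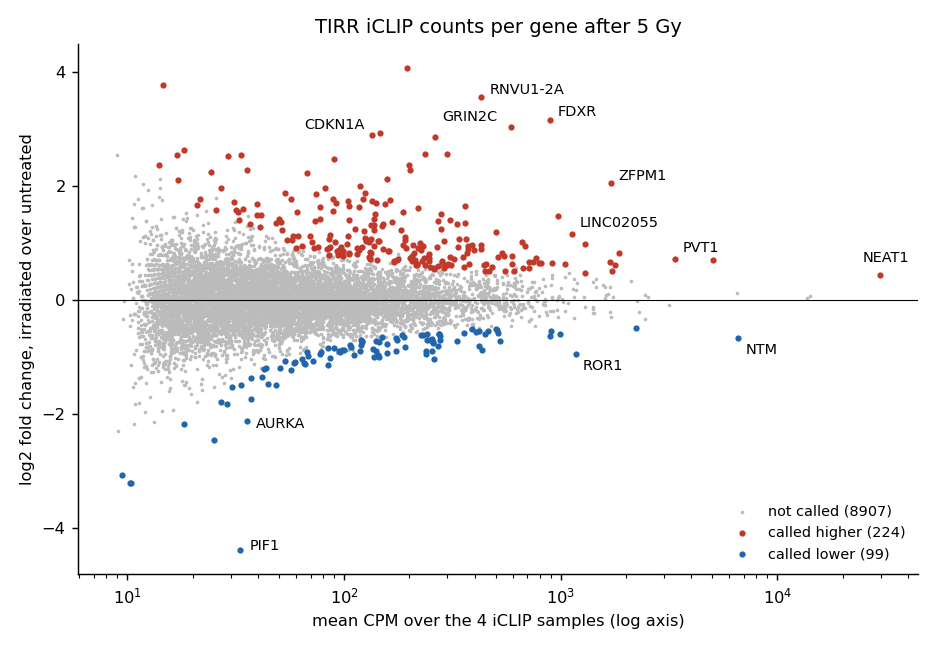
The log2 fold change of each tested gene (vertical axis, irradiated over untreated) is plotted against its mean level in CPM, counts per 1000000 of the scaled library size, over the 4 iCLIP libraries (horizontal log axis). The 224 called rises and 99 called falls are coloured, the 8907 other genes are grey, and NEAT1, NTM and PVT1 lie at the far right.

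Radiation is known to stabilise the transcription factor p53, which switches on genes for cell cycle arrest, DNA repair and cell death, while genes needed for mitosis are switched off through promoter elements that cell cycle complexes bind. 2 kinds of sequence near the called genes are described below. Whether p53 or these complexes acted on any of the genes was not tested. Promoters of RefSeq (assembly GRCh38.p14, 250 bases before to 50 after a start, the first listed start of each gene) were found for 6588 of the 9230 tested genes and 226 of the 323 called ones. They were searched on both strands for the CCAAT box (CCAAT), the cell cycle homology region or CHR (TTTGAA or TTTAAA), the E2F core (GGCGGG or GGCGCC) and the p53 half-site, known by name.

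The p53 response element consists of a pair of half-sites. A pair at most 13 bases apart lay in the promoters of 5 of the 6588 genes (0.0759%), and 4 of these 5 were called rises: LNCTAM34A, MCC, PTCHD4 and PURPL. These 4 were 2.61% of the 153 called rises with a promoter, and all lie outside the p53 list. The fifth, DYNC2H1, a motor of cilia, had 138 and 146 CPM before and 118 and 125 after the dose (log2 fold change -0.21, edgeR adjusted p = 0.661). With every listed start searched, DDB2 joined them, so that 5 of 6 such genes were called rises. A single half-site was far more common, in 5.80% of all, 8.50% of the risen and 13.7% of the fallen genes' promoters. The 5 pairs are shown because nearly all of them sit before a gene that rose. Each stretch reads 5′ to 3′ on the gene's own strand and ends before its start, with the half-sites in capitals.
LNCTAM34A (chr1:9182114-9182193, plus strand): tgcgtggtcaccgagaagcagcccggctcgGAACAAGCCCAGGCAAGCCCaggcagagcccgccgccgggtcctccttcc
PTCHD4 (chr6:48111198-48111247, minus strand): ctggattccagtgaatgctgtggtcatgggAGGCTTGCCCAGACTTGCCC
PURPL (chr5:27472135-27472214, plus strand): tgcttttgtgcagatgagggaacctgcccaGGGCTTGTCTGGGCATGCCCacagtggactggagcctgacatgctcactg
MCC (chr5:113488465-113488551, minus strand): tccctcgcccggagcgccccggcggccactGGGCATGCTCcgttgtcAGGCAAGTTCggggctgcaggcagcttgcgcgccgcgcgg
DYNC2H1 (chr11:103109220-103109311, plus strand): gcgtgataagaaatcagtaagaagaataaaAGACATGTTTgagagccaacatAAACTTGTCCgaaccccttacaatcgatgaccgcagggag
The half-sites touch in LNCTAM34A, PTCHD4 and PURPL, and are 7 and 12 bases apart in MCC and DYNC2H1.

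PURPL, a long noncoding RNA known to restrain p53, had 166 and 127 CPM before and 386 and 442 after the dose (log2 fold change 1.51 ± 0.16 SE, edgeR adjusted p = 1.47e-05). LNCTAM34A, a long noncoding RNA that starts opposite the miR-34a host gene, had 6.25 and 11 CPM before and 46.3 and 53.5 after (2.52 ± 0.40, edgeR adjusted p = 0.000807). PTCHD4, which encodes a relative of the Hedgehog receptor, had 60.0 and 57.3 CPM before and 134 and 171 after (1.40 ± 0.21, edgeR adjusted p = 0.000375). MCC, a gene found mutated in colorectal cancers, had 374 and 394 CPM before and 682 and 688 after (0.84 ± 0.13, edgeR adjusted p = 0.000603). The groups did not overlap in any of the 4 genes, whose irradiated libraries were the higher ones, nor in 44% of all tested genes. DYNC2H1, which was not called, had groups that did not overlap either, with the irradiated libraries lower. All 4 rises were called with any 1 library left out. PTCHD4 and MCC were named after their values and promoters had been seen.

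The elements of cell cycle promoters lay more often before the genes that fell. A CHR stood in 16.4% of all searched promoters, in 13.1% of those of risen and in 42.5% of those of fallen genes. CCAAT boxes stood in 36.1%, 33.3% and 46.6%, and both elements together in 6.62%, 2.61% and 27.4%. The mitosis list supplied part of this, with both elements in 8 of its 10 fallen genes that had a promoter (80.0%). Among the 63 other fallen genes with a promoter, 22 (34.9%) held a CHR and 12 (19%) held both elements, among them CIT, which encodes citron kinase, KIF18B, a mitotic kinesin gene, NTM and UNC5C. The calls of CIT and KIF18B ended with a library left out, CIT without untreated 1 (edgeR adjusted p = 0.202) and KIF18B without untreated 2 or irradiated 2 (highest 0.103). Among fallen genes of 200 kb or more 40.5% held a CHR, against 20.4% of all searched genes of that length. The E2F core went the other way, in 74.5% of all, 73.2% of risen and 54.8% of fallen genes' promoters. The median GC content was 65.7% over all, 67.3% for risen and 64.7% for fallen genes. With every listed start searched, a CHR stood in 24.4% of all, 20.9% of risen and 53.4% of fallen genes. The promoter of CDCA8, a subunit gene of the chromosomal passenger complex that steers chromosomes in mitosis, is shown because it holds both elements next to each other in the 120 bases before its start (chr1:37692396-37692515, plus strand, CCAAT boxes in either direction and the CHR in capitals).
CDCA8: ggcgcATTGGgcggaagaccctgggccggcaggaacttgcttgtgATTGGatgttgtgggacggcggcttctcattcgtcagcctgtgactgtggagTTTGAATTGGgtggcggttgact
CDCA8 had 47.5 and 37.8 CPM before and 7.72 and 7.65 after irradiation. These counts of motifs are descriptions of short windows, and whether any factor bound there was not measured.

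Several called genes are transcripts that carry microRNA hairpins. RefSeq places 34 hairpins on the same strand inside 31 called genes, 22 of which rose and 9 fell. These hosts were 13.7% of the 226 called genes with a promoter entry, against 564 (8.56%) of the 6588 tested ones, and rises were about as frequent among them as among all calls. The libraries count fragments of the host transcript, so nothing here measures the mature microRNA. The mature sequences below, from RefSeq, are those of hosts that rose or fell, with the seed, bases 2 to 8, in capitals.
hsa-miR-34a-5p (in MIR34AHG, which rose): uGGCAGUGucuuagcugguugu
hsa-miR-149-5p (in GPC1, which rose): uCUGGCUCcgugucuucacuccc
hsa-miR-330-3p (in EML2, which rose): gCAAAGCAcacggccugcagaga
hsa-miR-23a-3p (in MIR23AHG, which rose): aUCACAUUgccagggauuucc
hsa-miR-27a-3p (in MIR23AHG): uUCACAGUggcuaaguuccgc
hsa-miR-24-3p (in MIR23AHG): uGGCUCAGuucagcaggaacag
hsa-miR-99a-5p (in MIR99AHG, which fell): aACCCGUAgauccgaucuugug
hsa-let-7c-5p (in MIR99AHG): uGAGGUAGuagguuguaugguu
No 2 of these share a seed. MIR34AHG, the host of miR-34a, a microRNA known as a p53 target that represses cell cycle genes, had 71.3 and 74.4 CPM before and 301 and 207 after the dose (log2 fold change 1.76 ± 0.20, edgeR adjusted p = 2.74e-05). GPC1, which encodes the cell surface proteoglycan glypican 1, rose 2.56-fold (edgeR adjusted p = 0.000248) and EML2, a microtubule-binding protein gene, 2.48-fold (edgeR adjusted p = 0.000307). All 3 were called with any 1 library left out. MIR23AHG had 239 and 233 CPM before and 342 and 375 after, and MIR99AHG 355 and 276 before and 190 and 202 after. Their groups did not overlap, but both calls (edgeR adjusted p = 0.0212 and 0.0245) ended with a library left out: MIR23AHG without untreated 1 (adjusted p = 0.227), untreated 2 (0.242) or irradiated 2 (0.0694), and MIR99AHG without untreated 1 (0.448).

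The next comparison asked whether genes of different length moved differently, with lengths as the deposited tables give them. Long genes lost counts. Genes of 200 kb or more took 30% and 29.8% of the gene counts in the untreated libraries and 27.9% and 27.8% in the irradiated ones, a difference of -2.09 percentage points between means of 29.9% ± 0.119 and 27.8% ± 0.0954 (SD, n = 2 each). The difference was larger than the spread between replicates, but 2 libraries against 2 cannot give an exact two-sided permutation p below 0.333, which is the value obtained. The share on genes of 10 to 50 kb rose from 25% in both untreated libraries to 26.6% and 26.8%. That bin holds NEAT1, with 76588 counts and a 1.37-fold rise, and its median log2 fold change was only 0.03. How much of the gain came from NEAT1 was not computed.

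The falls were the longer genes. Of the 99 falls, 46 (46.5%) were 200 kb or longer, as were 33 of the 224 rises (14.7%) and 17.7% of all tested genes. The median length was 181 kb for falls, 57.3 kb for rises and 62.5 kb for all tested genes. None of the 12 fallen mitosis list members reached 200 kb (median 40.8 kb), and the 87 other falls had a median of 227 kb. The median log2 fold change ran down from 0.26 under 1 kb through 0.09 at 1 to 10 kb, 0.03 at 10 to 50 kb, 0.01 at 50 to 100 kb and -0.01 at 100 to 200 kb to -0.06 at 200 to 500 kb and -0.10 at 500 kb or more. Deposited lengths exceed the RefSeq span of some genes, above all noncoding ones: LINC01505 is listed at 747 kb and spans 63.7 kb, and LINC02055 is listed at 1233 kb and spans 367 kb. Of the 90 falls with a RefSeq position, 42 (46.7%) were 200 kb or longer by deposited length and 37 (41.1%) by RefSeq span, against 17.2% and 15.5% of all 8190 placed genes. Binned by RefSeq span, an alternative added after seeing the data, the medians were 0.27, 0.05, 0.02, -0.01, -0.02, -0.06 and -0.10. Scaled by library totals, which lowered the median of all tested genes to -0.06, the order stayed and the medians from 10 to 50 kb upward were all negative. In the longest bin 60.6% of genes had a negative log2 fold change, against 49.8% of all.

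Irradiated library 1 over untreated library 1 and irradiated 2 over untreated 2 gave medians of -0.09 and -0.11 in the longest bin, and 0.12 and 0.13 at 1 to 10 kb. Untreated 2 over untreated 1 gave -0.01 and -0.03 for the same bins, and irradiated 2 over irradiated 1 gave -0.05 and 0.06. Under 1 kb the irradiated libraries differed more, with -0.22 for irradiated 2 over irradiated 1. There, irradiated 1 over untreated 1 gave 0.40 and irradiated 2 over untreated 2 gave 0.20. Gene by gene the relation was weak, with a Spearman correlation of -0.11 across 9230 genes for the fit of all libraries. Ratios of a single irradiated over a single untreated library gave -0.056 to -0.116. Untreated 2 over untreated 1 already gave -0.053, and irradiated 2 over irradiated 1 gave -0.016. For the RNA-seq log2 ratio the correlation was 0.126 across 8090 genes. In all 4 fits with 1 library left out the longest bin's median stayed negative (-0.12 to -0.07). The share of falls at 200 kb or longer was then 31.7% to 42.9%, lowest without untreated library 1 (13 of 41), and 13 of the 15 falls that DESeq2 called were of that length. DESeq2 gave an adjusted p for only 281 of the 323 called genes. It gave none for short falls such as CDCA8 and TNFAIP8L1, so these could not be among its 15. Long genes also held more counts per gene, a median of 217 in the longest bin and 76 in the shortest. With all libraries thinned to equal depth the bin medians were 0.23, 0.08, 0.03, 0.03, -0.02, -0.06 and -0.11. Among genes with at least 100 counts the medians ran from 0.34 to -0.10 in the same order.

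RNA-seq did not show the same course. Genes of 200 kb or more held 6.10% of its gene counts before and 6.27% after irradiation, and the bin medians of its log2 ratio lay between -0.08 and 0.03 from 1 kb upward, with 0.00 in the longest bin. The 19 genes under 1 kb with enough RNA-seq counts had a median of -0.38, opposite in sign to iCLIP.

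**Figure D2:**
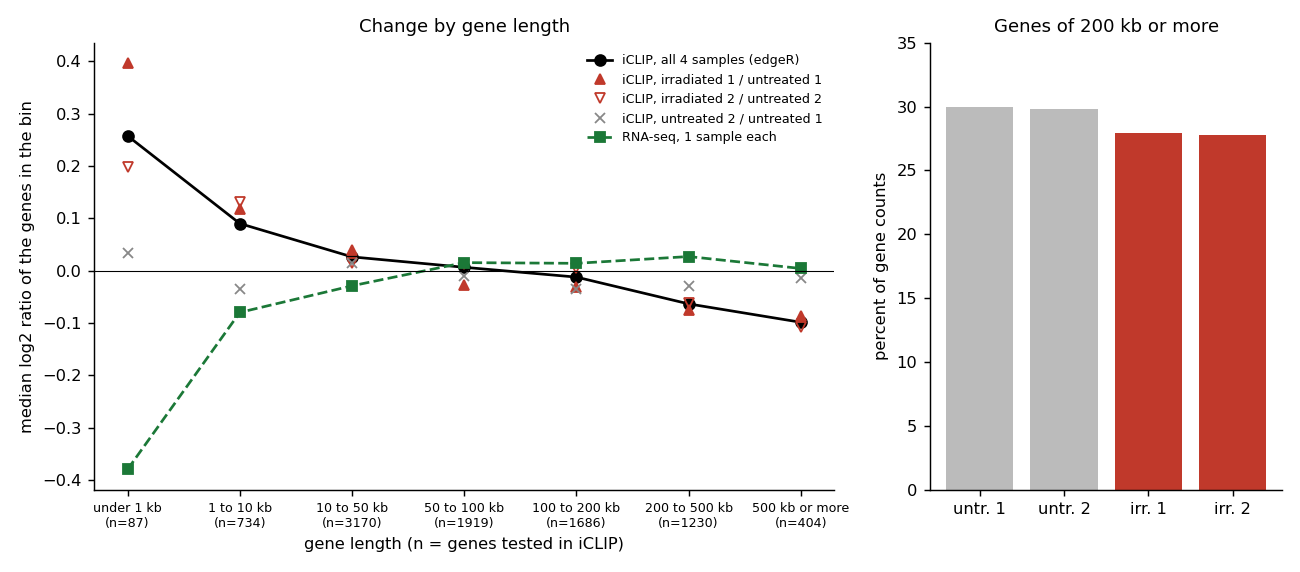
Left, the median log2 ratio of the tested genes in each length bin for the edgeR fit of all 4 iCLIP libraries (black), for each irradiated library over the untreated one of the same number (triangles), for the untreated libraries against each other (crosses) and for RNA-seq (green squares, genes with at least 50 counts). Right, bars from 0 show the percent of gene counts on genes of 200 kb or more in each library, 30 and 29.8 untreated and 27.9 and 27.8 irradiated.

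NTM, a 966 kb gene for a neural cell adhesion protein, was the called fall with the most counts, at 7957 and 8188 CPM before and 5239 and 5020 after irradiation (log2 fold change -0.65 ± 0.10 SE, edgeR adjusted p = 0.000361). The RNA-seq ratio of NTM was 0.965 (95% counting interval 0.894 to 1.04). ROR1, a receptor for Wnt ligands encoded over 407 kb, had 1596 and 1493 CPM before and 756 and 851 after, 1.92-fold lower (edgeR adjusted p = 9.86e-05), and its RNA-seq ratio was 0.585 (0.526 to 0.650). The groups of both genes stood far apart, while RNA-seq fell for ROR1 alone.

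Among the 17 falls called in every leave-one-out fit, 10 were between 223 kb and 966 kb long. Besides NTM and ROR1 they included FRAS1, an extracellular matrix protein gene, with 191 and 194 CPM before and 97.7 and 96.4 after, and PLCE1, a phospholipase C gene, with 191 and 174 before and 92.6 and 91.8 after. KCNIP1, which encodes a potassium channel partner, had 296 and 329 CPM before and 167 and 161 after, and LIMCH1, an actomyosin regulator gene, 231 and 224 before and 113 and 129 after. The fold decrease of these 4 genes was 1.99, 1.98, 1.91 and 1.86 (edgeR adjusted p = 0.00251, 0.00324, 0.00121 and 0.00335). All 4 were lower in both irradiated libraries, by similar amounts. Their RNA-seq ratios were 1.12 (0.987 to 1.28) for FRAS1, 0.905 (0.826 to 0.991) for PLCE1, 1.14 (0.695 to 1.87) for KCNIP1 and 0.927 (0.860 to 1.00) for LIMCH1. PRR16, SH3RF3, which encodes a ubiquitin ligase, and the noncoding LINC01505 fell 1.84-fold, 1.74-fold and 1.84-fold. Of the shorter falls, TNFAIP8L1, a gene of lipid transfer proteins, went from 73.8 and 70.8 CPM to 18 and 30.6 (edgeR adjusted p = 0.00566), and its RNA-seq ratio was 0.293 (0.255 to 0.336). ST3GAL1, a sialic acid transferase gene, fell 2.03-fold and LMCD1, a LIM domain factor gene, 1.90-fold.

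**Figure D3:**
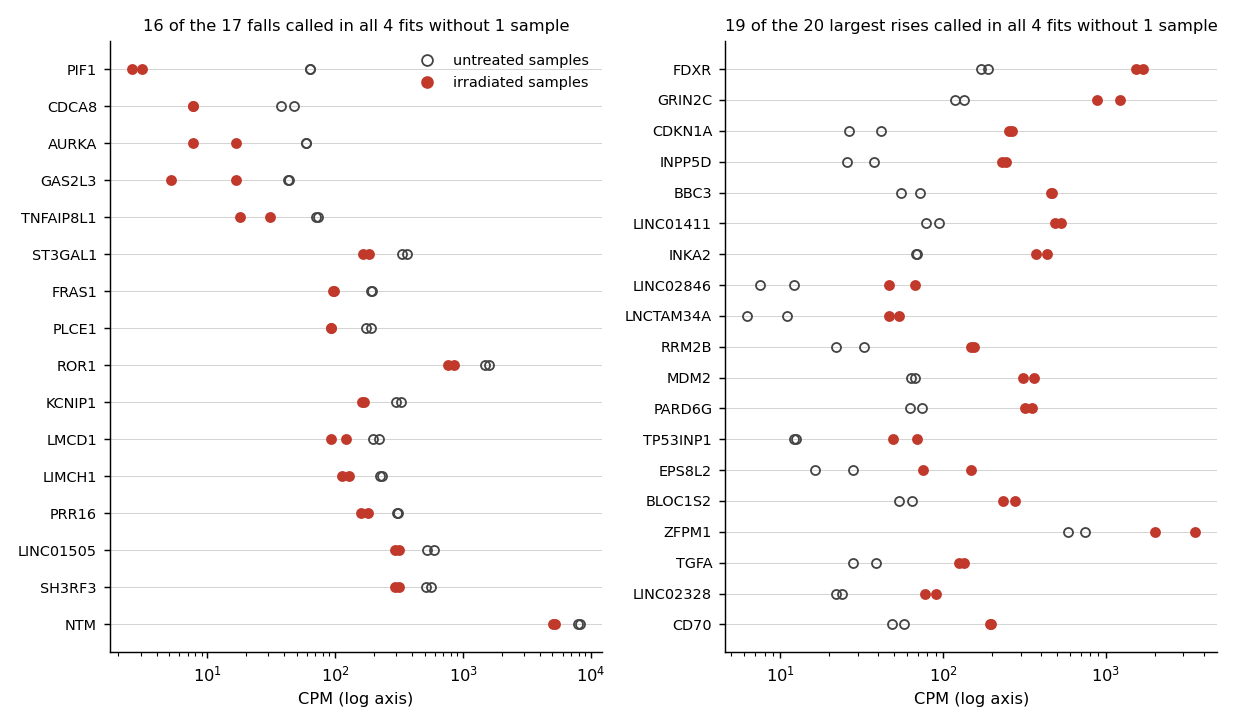
Each row gives a gene's CPM in the 2 untreated (open circles) and 2 irradiated libraries (filled circles) on a log axis, for 16 of the 17 falls (left) and 19 of the 20 largest rises (right) that were called in all 4 leave-one-out fits. No drawn gene's groups overlap, and NTM, at 5020 to 8188 CPM, has the highest level.

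The p53 targets and mitosis genes moved together within each list. In the p53 list 17 of 21 tested members rose and 0 fell (median log2 fold change 1.77, against 0.00 for all tested genes), and in the G2 phase and mitosis list 12 of 29 fell and 0 rose (median -1.10). Both lists were put together from known biology with results of these data in view, so their direction is not independent evidence. Without irradiated library 2 the counts were 14 and 7, and without untreated library 2 they were 16 and 7.

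Outside these lists, the largest rise called in every leave-one-out fit was that of GRIN2C, which encodes a glutamate receptor subunit and lies 964 bases from FDXR on chromosome 17. GRIN2C had 119 and 134 CPM before and 1217 and 887 after. INPP5D, which encodes the phosphatase SHIP1 known from blood cells, had 37.5 and 25.6 CPM before and 231 and 242 after (7.49-fold, edgeR adjusted p = 1.08e-07). PARD6G, a cell polarity protein gene, had 62.5 and 74.4 before and 352 and 320 after (4.87-fold, edgeR adjusted p = 1.21e-07). ZFPM1, the gene of FOG1, a partner of GATA factors, had 588 and 740 CPM before and 3534 and 1997 after (4.14-fold, edgeR adjusted p = 3.10e-06), a rise in both libraries but larger in irradiated 1. TGFA, a ligand of the epidermal growth factor receptor, rose 3.91-fold, CD70, a ligand of the TNF family, 3.66-fold, and EPS8L2, an actin regulator gene, 4.72-fold. Among noncoding RNAs LINC01411 had 93.8 and 78.1 CPM before and 530 and 488 after. LINC02846 and LINC02328 rose 5.85-fold and 3.69-fold from fewer than 25 CPM.

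The rises with the most counts were more modest. NEAT1, the RNA scaffold of nuclear paraspeckles, led them with 76588 counts, but was not called by DESeq2 (adjusted p = 0.0860) or with a replicate block (edgeR adjusted p = 0.252). ACTN1, which encodes an actin crosslinker, had 1422 and 1252 before and 2407 and 2338 after (log2 fold change 0.83 ± 0.11 SE, edgeR adjusted p = 0.000218) with an RNA-seq ratio of 1.05 (95% counting interval 1.02 to 1.08). PVT1, a long noncoding RNA next to MYC, had 2463 and 2636 CPM before and 4162 and 4273 after (0.73 ± 0.10, edgeR adjusted p = 0.000312) and an RNA-seq ratio of 1.59 (1.40 to 1.82). CALN1, a calcium sensor gene of 668 kb, and LINC02055, listed at 1233 kb, rose 1.59-fold and 2.23-fold against the direction of most genes of their length. CRYBB2P1, a crystallin pseudogene, had 877 and 869 CPM before and 1744 and 1714 after, and reads of a pseudogene can be shared with its parent gene.

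Of the 51 pathway lists, 19 held no called member and 15 held 1. Because 3.5% of all tested genes were called, a short list can hold none without standing apart. The apoptosis list had 6 rises among 20 tested genes and a median log2 fold change of 0.46, but BBC3, BAX and FAS stand on the p53 list too. Its other rises were BCL2L1, which encodes the survival protein BCL-XL, from 191 and 185 to 460 and 485 CPM (edgeR adjusted p = 1.31e-05), the death inducer BCL2L11, and the initiator caspase gene CASP8. The call of BCL2L11 ended without untreated 2 (edgeR adjusted p = 0.142), that of CASP8 without untreated 1 (0.379), that of FAS without irradiated 2 (0.0794) and that of BAX without irradiated 2 (0.535).

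DNA repair lists held a few rises and 0 falls, where 1.07% of all tested genes fell, so few falls would be found in lists this short. In the double-strand break list 2 of 36 tested genes rose (5.56% against 2.43% higher among all tested genes, median 0.04). They were RAD51C, a gene of homologous recombination, from 30 and 43.9 to 129 and 107 CPM (3.12-fold, edgeR adjusted p = 0.000471), and the end-joining ligase LIG4, whose call (edgeR adjusted p = 0.0350) ended without untreated 2 (0.447) or irradiated 2 (0.0911). In the excision and mismatch repair list 3 of 25 rose, namely DDB2, a sensor of ultraviolet damage, 3.24-fold, POLH, a polymerase that bypasses such damage, 2.95-fold, and REV3L, the catalytic subunit of another bypass polymerase, 1.92-fold. DDB2 and POLH are also p53 list members, and the call of REV3L ended when untreated 2 was left out (edgeR adjusted p = 0.106). None of 11 tested Fanconi anaemia genes was called, against 3.5% of all tested genes, a share too low to set so short a list apart.

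Calls in both directions were found in the axon guidance, matrix, Notch, Wnt and PI3K lists, among others. The Hippo list had 2 rises among 24 tested genes and the TGF-beta list 1 fall among 28. The integrin and NF-kB lists had 0 calls among 24 and 12. With 3.5% of all tested genes called, counts this small do not set such short lists apart. In the axon guidance and neural adhesion list 3 of 47 tested genes rose (6.38%) and 4 fell (8.51%), against 2.43% and 1.07% of all tested genes. PLXNB2, a semaphorin receptor, rose from 436 and 584 to 1785 and 1065 CPM (2.77-fold, edgeR adjusted p = 9.86e-05) and NTM fell, both in every leave-one-out fit. The other calls, PLXNB1 and CDH13 upward and NCAM1, UNC5C and NLGN1 downward, were each lost with a library left out. PLXNB1 (edgeR adjusted p = 0.126 and 0.0552) and UNC5C (0.0913 and 0.0720) missed the threshold without untreated 1 or 2, CDH13 (0.127, 0.375 and 0.469) and NCAM1 (0.333, 0.120 and 0.0504) without untreated 1, untreated 2 or irradiated 2, and NLGN1 without untreated 2 (0.0850) or irradiated 2 (0.146). NOTCH1, the Notch receptor gene, rose from 123 and 172 to 484 and 309 CPM (edgeR adjusted p = 0.000346), whereas MAML3, a Notch coactivator gene, fell by 0.59 on the log2 scale (edgeR adjusted p = 0.0367), a call lost without untreated 1 (0.469), untreated 2 (0.0770) or irradiated 2 (0.0709). FGFR2, a fibroblast growth factor receptor gene, rose 2.09-fold. In the matrix list COL22A1 rose from 209 and 231 to 435 and 483 CPM (edgeR adjusted p = 0.000154), COL27A1 rose 1.61-fold (0.0260) and the gelatinase gene MMP2 fell 2.11-fold (0.0217). The call of COL27A1 ended without untreated 1 (edgeR adjusted p = 0.260), untreated 2 (0.0909) or irradiated 2 (0.324), and that of MMP2 without untreated 1 (0.115) or irradiated 2 (0.0540). RUNX2, the master regulator of bone cells, had 1094 and 1084 CPM before and 687 and 718 after (edgeR adjusted p = 0.00426), but not past the threshold without untreated 1 (0.0550).

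Several housekeeping lists held no called gene. With 3.5% of all tested genes called, lists of this size would hold few. None of 43 tested cytosolic ribosomal protein genes was called (median log2 fold change 0.13), nor any of 31 translation factor, 23 core spliceosome, 22 paraspeckle protein, 37 nuclear pore and export, 18 proteasome, 17 chaperone or 17 unfolded protein response genes, whose medians lay between -0.15 and 0.08. Scaled by library totals, the ribosomal protein median was 0.06. Other such lists held 1 call each: MARS1 (a transfer RNA synthetase) lower, and NDUFAF6 (respiratory chain), TKT (pentose phosphate pathway), SRSF5 (splicing), PABPN1 (polyadenylation) and DCP1B (RNA decay) higher. None of these calls held in every leave-one-out fit, and DESeq2 called PABPN1 alone. NDUFAF6 overlaps a risen p53 list member over 23407 bases, and DCP1B overlaps another risen gene over 33678 bases, so reads may be shared. In the immediate early and AP-1 list the median was 0.50 over 11 tested genes, with 0 calls.

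**Figure D4:**
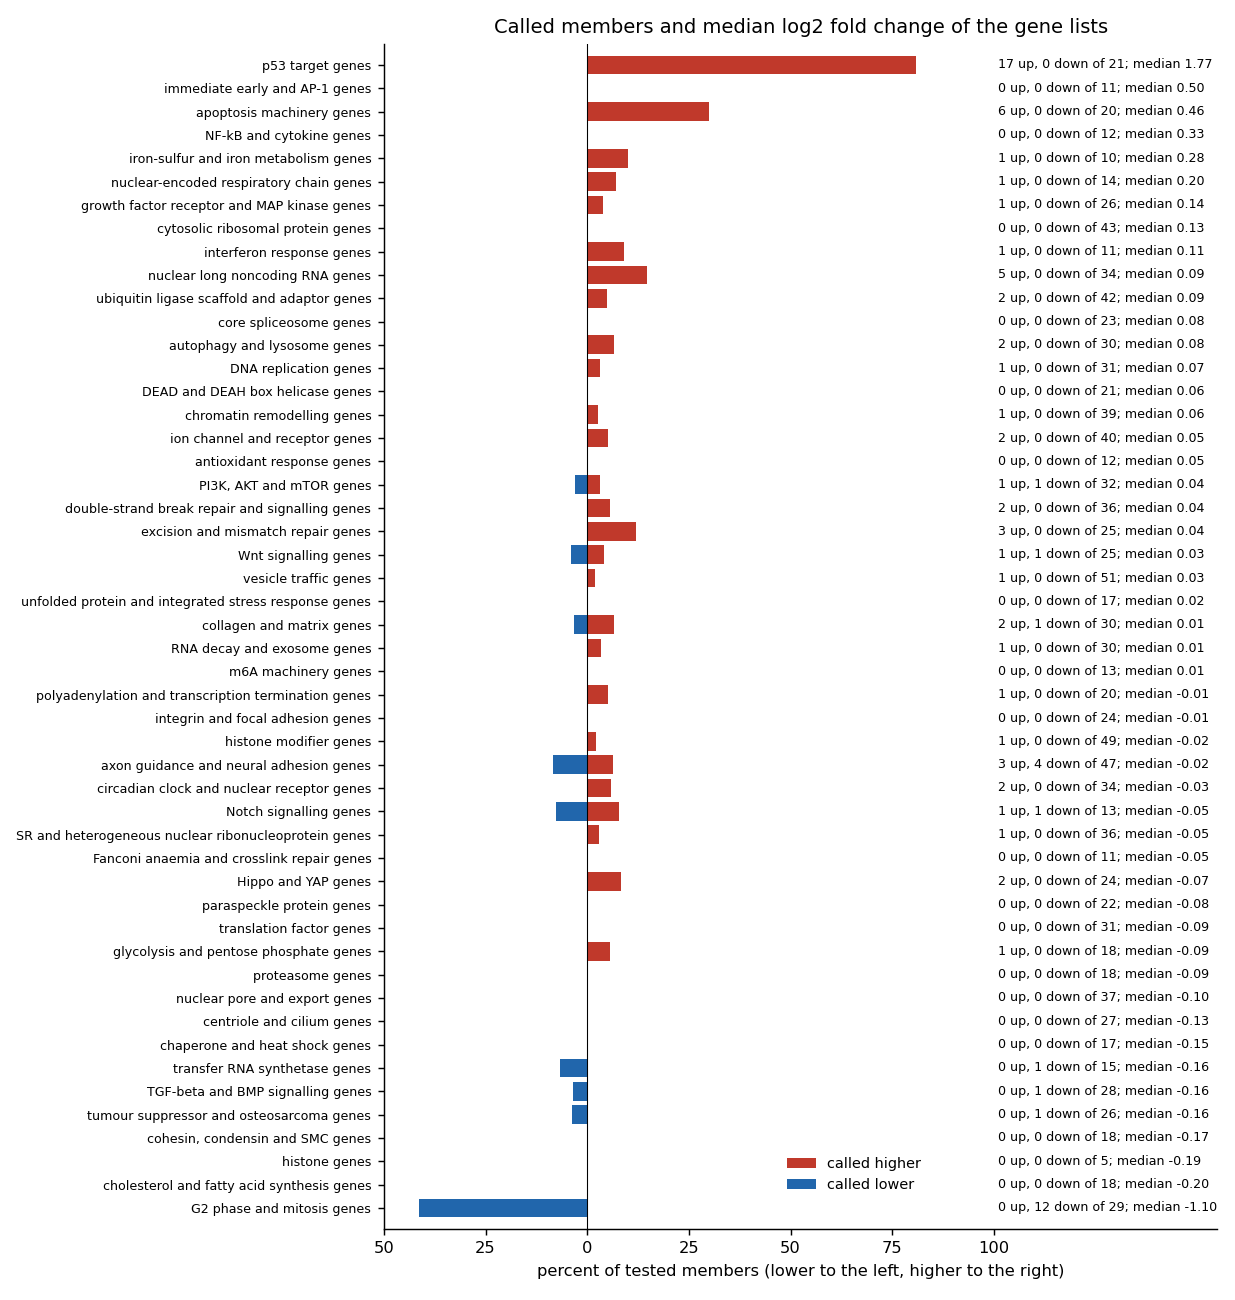
For 50 of the 51 gene lists, bars give the percent of tested members called higher (to the right) or lower (to the left), and the text beside each bar gives the counts and the median log2 fold change. The p53 list, with 17 of 21 higher, and the mitosis list, with 12 of 29 lower, stand at the ends, while 19 lists have no bar.

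By RNA class, calls were near the background of 3.5% in protein-coding genes, where 174 of 7303 tested rose and 76 fell. Of 239 numbered LINC RNAs 8 rose and 8 fell, of 225 antisense RNAs 8 rose and 2 fell, of 123 other long noncoding RNAs 5 rose and 0 fell, and of 120 pseudogenes 6 rose and 1 fell. Genes known by a clone identifier gave 16 rises and 9 falls among 1009. The short classes had the highest medians, 0.40 over 28 small nuclear RNAs and their copies, 0.42 over 17 mitochondrial RNAs and 0.29 over 15 small nucleolar RNAs, with 3, 0 and 0 calls. The share of gene counts on small nuclear RNAs was 0.220% and 0.227% before and 0.295% and 0.393% after, but RNVU1-2A, a U1 variant, alone had 60, 53, 27 and 983 counts, and its log2 fold change, 3.56 over all libraries, was -0.0061 without irradiated 2. The mitochondrial share was 0.613% and 0.959% before and 1.08% and 0.629% after, so its groups overlapped. So did those of the small nucleolar share, 0.0684% and 0.0910% before and 0.125% and 0.0802% after.

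By chromosome, chromosome 19, whose tested genes have a median length of 25.7 kb, gave 19 rises and 3 falls among 479 genes, and chromosome 4, with a median of 116 kb, gave 1 rise and 10 falls among 324. The shares called were 4.59% and 3.40%, against 3.5% of all tested genes. Not every chromosome followed length. Chromosome 18, with a median of 119 kb, gave 2 rises and 2 falls among 152, and chromosome 2, with 89.8 kb, 23 rises and 7 falls among 602. Called genes also lay beside each other: 20 of 298 called genes with a RefSeq position (6.71%) had another called gene within 10 kb, against 1.56% of all 8189 placed genes. These formed 10 pairs, and in all 10 both genes moved the same way. They include overlapping pairs on opposite strands, MIR34AHG with LNCTAM34A and FAS with ACTA2, the smooth muscle actin gene. ACTA2 had 1.25 and 8.54 CPM before and 25.7 and 32.1 after, and its call ended without untreated 1 (edgeR adjusted p = 0.163) or irradiated 2 (0.205). The pairs also include LMCD1 with its antisense neighbour LMCD1-AS1, both lower, the second not past the threshold without untreated 1 (edgeR adjusted p = 0.0686). The intergenic line of the tables is 4469334271 bases long, more than the 3086990947 bases up to the last RefSeq gene of every chromosome, so the tables measure lengths over both strands. Whether the counting used strand is not stated in the sources at hand, and reads from overlapping genes may not be told apart.

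RNA-seq moved with iCLIP for most called genes. Over the tested genes with at least 50 RNA-seq counts (8090), the 95% counting interval of the RNA-seq ratio lay wholly above 1 for 19% and wholly below 1 for 22.4%. For the 203 called iCLIP rises these shares were 63.1% and 5.91%, and for the 96 called falls 1.04% and 74.0%. The median RNA-seq log2 ratio was 0.44 for the rises, whose iCLIP median was 0.95, and -0.48 for the falls, whose iCLIP median was -0.88. For rises outside the p53 list and falls outside the mitosis list the RNA-seq medians were 0.38 and -0.45. With 1 RNA-seq library per condition these ratios have no replicate check and their intervals cover counting error only.

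A few called genes moved apart from RNA-seq. NEAT1 had an RNA-seq ratio of 0.872 (95% counting interval 0.835 to 0.911) beside its iCLIP rise. BCL2L11 had 589 and 514 CPM before and 890 and 875 after in iCLIP, and an RNA-seq ratio of 0.696 (0.622 to 0.778). PABPN1, which encodes a poly(A)-binding protein, WNT5B, a Wnt ligand gene, and LRRC4B, a synaptic adhesion gene, rose 1.57-fold, 1.55-fold and 1.42-fold in iCLIP, with RNA-seq ratios of 0.886 (0.802 to 0.978), 0.823 (0.744 to 0.910) and 0.721 (0.656 to 0.791). The iCLIP calls of all 3 ended with an untreated library left out: PABPN1 without untreated 2 (edgeR adjusted p = 0.228), WNT5B without untreated 1 (0.225) or 2 (0.0512) and LRRC4B without untreated 1 (0.403) or 2 (0.323). TPM1, a tropomyosin gene, was the 1 called fall with an interval above 1 in RNA-seq, at 1.06 (1.01 to 1.11), and its call ended when untreated 2 was left out (edgeR adjusted p = 0.117). Whether the assays themselves differ for any of these genes was not tested.

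**Figure D5:**
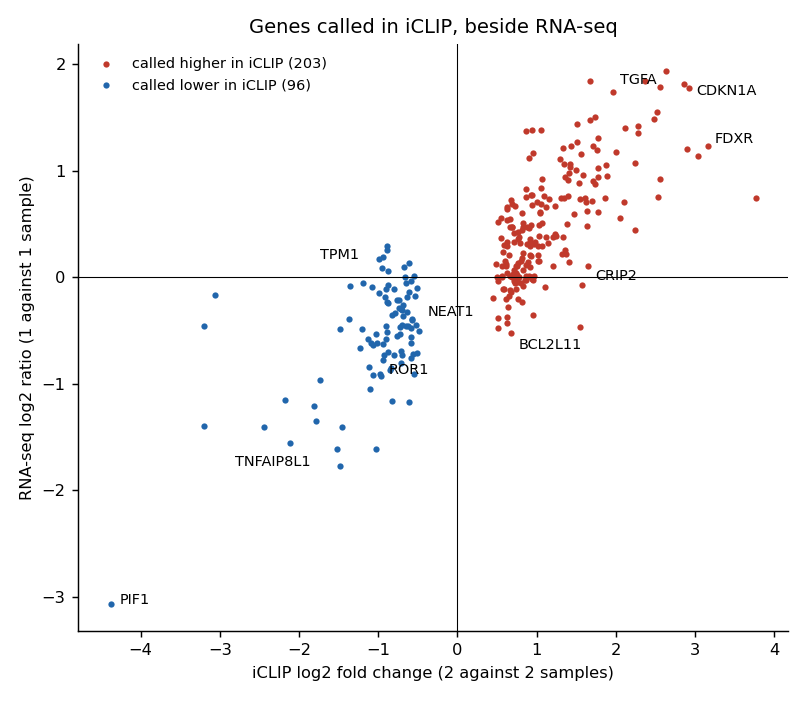
Each point is a gene called in iCLIP with at least 50 RNA-seq counts, placed by its iCLIP log2 fold change (horizontal) and its RNA-seq log2 ratio between 1 irradiated and 1 untreated library (vertical). The 203 rises have a median RNA-seq log2 ratio of 0.44 and the 96 falls one of -0.48, and NEAT1 and BCL2L11 lie below 0 among the rises.

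The replicates agreed closely in the untreated pair and less so in the irradiated pair. Across genes, Pearson's correlation of log2 CPM was 0.955 between the untreated and 0.921 between the irradiated libraries, and 0.902 to 0.928 between libraries of different groups. Chi-square over degrees of freedom was 1.51 and 1.97 within the groups and 3.23 to 3.76 between them, so replicates differed by more than counting error. Among 5340 genes with at least 100 counts in all, 16 (0.300%) differed more than 2-fold between the untreated and 152 (2.85%) between the irradiated libraries. Irradiated library 1 is also the shallowest. The groups did not overlap in 44% of all tested genes, and in 223 of the 224 rises and all 99 falls. The calls were made from these same counts, so their lack of overlap is not a separate check on them.

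The most uneven genes were not called, apart from RNVU1-2A. ENPP2, which encodes autotaxin, an enzyme that makes a signalling lipid, had 78 and 73 counts in the untreated libraries but 1 and 78 in the irradiated ones. RAP2C, a small GTPase gene, had 76 and 11 counts, then 2 and 73. ETS1, a transcription factor gene, had 77 and 80, then 12 and 90, and ELK1, a factor of the same family, 31 and 36, then 5 and 39. MROH6 had 28 and 37, then 27 and 8. Irradiated library 1 was thus the low one for 4 of these 5 genes, ENPP2, RAP2C, ETS1 and ELK1.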

How the data were processed

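Counts of cDNAs per gene, in whole numbers, were deposited with gene length and percent of the library, per the file headers. The counts were used as deposited, and the intergenic line (30.6% to 31.3% of iCLIP counts) was left out of library sizes and tests. The submitters' processing notes name hg38. Duplicate removal and use of strand are not stated there. Of the iCLIP gene identifiers, 99.94% matched the gene name table. Positions, promoters and microRNAs came from RefSeq tables of GRCh38.p14.

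The 2 irradiated and 2 untreated iCLIP libraries were compared by quasi-likelihood F tests (edgeR 4.0.16, R 4.3.3) after filterByExpr at its defaults and TMM scaling, with p-values adjusted by Benjamini-Hochberg over all tested genes and called at 0.05. CPM are counts per 1000000 of the scaled library size. Alternatives were library totals, DESeq2 1.42.0, no filter, a stricter filter of 20 counts, a replicate block, thinning to 400723 counts and leaving out each library. The fit was tested on simulated counts for this comparison over 9230 genes. It recovered 52.1% of 2-fold and 94.0% of 4-fold rises, and 50.0% and 92.0% of such falls, with 7 false calls. Every gene was simulated with the replicate spread that the fitted trend gives at its level. Genes with more uneven replicates, such as ENPP2, were thus not covered, and these rates may be too favourable.

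RNA-seq ratios of genes with at least 50 counts carry exact conditional 95% counting intervals. Log2 ratios between single libraries used a prior of 0.5. Python 3.11.15, pandas 2.3.3, scipy 1.17.1 and matplotlib 3.10.9 were used. Length bins, RNA classes and lists are described by counts and medians, with no set test.

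The members and lists were chosen with earlier results of these data known. Named genes were the 20 largest rises and falls called in every leave-one-out fit, the 10 called rises and falls with most counts, called members of each list, the 5 called genes with most counts per class and length bin, the 6 most uneven genes with at least 100 counts, and up to 10 called genes whose RNA-seq interval lay on the other side of 1. GPC1, EML2, PTCHD4, MCC, DYNC2H1, ACTA2, CIT and KIF18B were named after their values were seen. Some genes that the rule names are not reported here.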

Additional observations from a re-analysis of the deposited data

Results flagged for a closer look

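Counts outside annotated genes entered no comparison of the report. The intergenic line held 31.1% of the counts in the mean of the irradiated libraries (31.3% and 30.9%), above 30.7% in the mean of the untreated ones (30.6% and 30.8%), and the 2 groups did not overlap. What these counts lie on was not analysed here.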

How the results depend on the processing

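With 2 libraries per group the number of calls depends on the setting. Against 323 calls (224 higher, 99 lower), DESeq2 called 121 (106 higher, 15 lower) and thinning to equal depth 175 (131 and 44). Library totals gave 184 rises and 132 falls, so that rises made up 58.2% of the calls instead of 69.3%. Leaving out 1 library gave 186 to 421 calls, 145 to 289 higher and 41 to 132 lower, fewest without untreated replicate 1. The replicate numbers have no stated meaning and same-numbered deviations had a correlation of -0.20; a replicate block gave 190 calls (150 higher and 40 lower). Genes with uneven replicates moved with single libraries. RAP2C, 0.35 on the log2 scale in the full fit, ranged from -3.34 (without irradiated replicate 2) to 2.28 (without untreated replicate 1), ENPP2, -0.37, from -5.08 (without irradiated replicate 2) to 0.36, and RNVU1-2A, 3.56, from -0.0061 (without irradiated replicate 2) to 4.43. Of the 147 called genes covered by the naming rule or named later, 65 were called in every alternative that tested them. In the irradiated pair, the shallower library limits genes of few counts.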
